A study of Mus musculus with 22 samples.

Results

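Integrins are the receptors by which cells hold the extracellular matrix, and focal adhesion proteins tie the receptors to actin. The RNA of 40 such genes was followed here in neural stem cells given a hairpin against Ogt or an inhibitor of its product, O-GlcNAc transferase (OGT), the enzyme that places O-GlcNAc, a single sugar, on proteins of the nucleus and cytosol. The genes were taken by symbol from the 24411 entries of each deposited table: 20 integrin chains whose symbols are Itga or Itgb followed by a number, and 20 named adhesion genes. Itgav, the αv chain, has no number in its symbol and so lies outside these 40.

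The cells were primary neural stem cells of the adult mouse hippocampus, in 22 RNA-seq libraries and 4 groups. All were grown on a coating of poly-D-lysine and laminin at 10000 cells per well, in medium with EGF and bFGF at 10 ng/ml each. In the knockdown experiment, 5 ShOgt libraries were made after 3 days of a lentivirus coding for an shRNA that targets Ogt, and 6 ShLuc libraries after a virus with the control shRNA, both at 10 viral particles per cell. In the inhibitor experiment, 5 libraries came from cells given the OGT inhibitor OSMI-1 at 12.5 µM for 24 h (OSMI), and 6 came from cells given the same volume of DMSO (Vehicle). Strain, age and sex of the mice are not stated in the labels, nor is it stated whether replicates are separate animals, separate cultures or neither, so p-values measure the spread between these libraries, which may be technical. Each hairpin group stands for 1 hairpin as far as the labels say.

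An integrin is a pair of 1 α and 1 β chain. The α chain largely sets the ligand: α3, α6 and α7 with β1 bind laminins, α1, α2, α10 and α11 bind collagens, and α5, α8 and αIIb bind the RGD motif of fibronectin and related proteins. Talins and kindlins bind the β tail and switch the receptor on; integrin-linked kinase (ILK), PINCH and parvin form a complex that couples β1 and β3 tails to actin; vinculin, filamin, α-actinin, zyxin and tensins carry the actin link; and focal adhesion kinase (Ptk2), paxillin and p130Cas (Bcar1) pass the signal on. In the adult brain, neural stem cells use β1 integrins to hold laminin in their niche.

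Library depth was 7.22 to 13.2 M reads in the knockdown experiment and 4.52 to 12.8 M reads in the inhibitor experiment, where all libraries but OSMI replicate 4 lay at or below 5.93 M reads. Reads of the ribosomal precursor Rn45s made up 0.921 to 1.25% of a knockdown library and 4.81 to 14.2% of an inhibitor library. Levels are deposited normalized counts, that is, reads divided by a size factor for each library. They are given as mean ± SD (n = 5 for ShOgt and OSMI, n = 6 for ShLuc and Vehicle), and since each table was normalized by itself they are compared only within an experiment. Values of single libraries stand in the order of the replicate numbers, which are 1, 2, 3, 5 and 6 for ShOgt and 1, 2, 4, 5 and 6 for OSMI. Ogt RNA, the target of the hairpin, averaged 424 ± 63.9 in ShOgt and 836 ± 89.8 in ShLuc (log2 fold change -0.98 ± 0.11, adjusted p = 1.11e-06), and 599.9 ± 42.5 in OSMI and 455 ± 37.6 in Vehicle (log2 fold change 0.40 ± 0.083, adjusted p = 0.00104). Of 10 neural stem cell markers, Nes averaged 5228 normalized counts in ShOgt, 5591 in ShLuc, 3027 in OSMI and 2892 in Vehicle, and Vim, Slc1a3 and Fabp7 lay higher still, while Hes5 and Hopx reached at most 8.89 and 5.74 in a library. Their summed level was 32374 to 38065 in ShOgt and 35976 to 40983 in ShLuc libraries, and 16406 to 18162 in OSMI and 21664 to 26229 in Vehicle libraries, with Vim called higher and Slc1a3 lower after knockdown, and 3 of the 10 (Vim, Slc1a3 and Fabp7) called lower after OSMI-1. Oligodendrocyte lineage markers, nearly all of whose sum is Olig1, summed to 10014 to 11543 in ShOgt and 17774 to 20743 in ShLuc libraries, with 3 of 8 called lower, and to 10943 to 14663 in OSMI and 9716 to 12283 in Vehicle libraries, with Olig1 called higher and Mbp lower. Neuronal markers summed to 3251 to 3586 in ShOgt and 3919 to 4580 in ShLuc libraries, where of 8 Tubb3 was called higher and Map2 and Calb2 lower, and to 2134 to 2999 in OSMI and 1835 to 2345 in Vehicle libraries, where Map2 was called higher and Tubb3, Calb2 and Snap25 lower. Ependymal and choroid plexus markers, 1 of 8 of which was at 0 in all libraries of each experiment, summed to 258 to 363 in ShOgt and 231 to 327 in ShLuc libraries, with Folr1 called higher, and to 89.3 to 151 in OSMI and 200.2 to 250.1 in Vehicle libraries, with Foxj1 and Otx2 called lower. The part of these shifts in the results below was not tested, and in bulk RNA fewer cells of a type and less RNA per cell cannot be told apart. Microglia and immune markers, 4 of 14 of which (not the same 4) were at 0 throughout each experiment, summed to 26.8 to 49.8 in ShOgt and 7.46 to 52.8 in ShLuc libraries, and to 13.3 to 25.2 in OSMI and 11.1 to 27.2 in Vehicle libraries. Endothelial markers summed to 27.7 to 81.2 in ShOgt and 16.7 to 41.0 in ShLuc libraries, with Tek called higher despite overlap. They reached at most 38.5 in an inhibitor library. Platelet markers, mostly Pf4, summed to 202 to 319 in ShOgt and 169 to 228 in ShLuc libraries. Mural and fibroblast markers reached at most 68.1 in a knockdown library. Platelet and mural sums each reached at most 113 in an inhibitor library, and no marker of either was called. ShOgt replicate 3, ShLuc replicates 1 and 3, OSMI replicate 5 and Vehicle replicate 1 stood apart on a principal component of their experiment, and calls that did not hold without them are named below.

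After Ogt knockdown, the actin linkers Actn4, Flna, Vcl and Zyx and the adhesion genes Ilk and Ptk2 were higher, the PINCH-1 gene Lims1 fell 3.19-fold, and the laminin receptor chain Itga6 and the α8 chain fell. After OSMI-1 the linkers Actn4, Flna, Vcl and Zyx were lower and α8 was higher. Of the 40 genes, 31 passed the filter on low counts in the knockdown experiment, and 12 of these were called higher and 3 lower (limma, adjusted p under 0.05). Among all 12136 genes tested there, 15.4% were called higher and 16.4% lower, 31.8% in all. In the inhibitor experiment 28 passed the filter, of which 2 were called higher and 9 lower, where 11.6% of all 11349 genes tested were called higher and 13.2% lower, 24.8% in all. The median log2 fold change of the tested genes of the list was 0.24 after knockdown and -0.13 after OSMI-1, beside 0.012 and 0.0016 over all genes tested. No gene of the list was called in the same direction in both experiments by limma, edgeR or DESeq2, and at an unadjusted limma p under 0.05 Rsu1 was higher in both and Itga1 lower in both. The groups did not overlap, with every ShOgt library above every ShLuc library, for 6 of the 31 genes, and 3 lay wholly below, beside 8.83% and 9.96% of all genes. Every OSMI library lay above every Vehicle library for 1 of the 28 and below for 7, beside 6.27% and 7.71% of all genes. Itga3, among the 12 called higher and the 6 wholly above, passed the filter only through its ShOgt libraries. This favours a higher level in ShOgt, so its place in these counts is a description. Of the 26 genes with at least 5 libraries of each group at the cutoff of the filter, 11 were called higher and 3 lower after knockdown, with 5 wholly above and 3 wholly below.

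**Figure D1:**
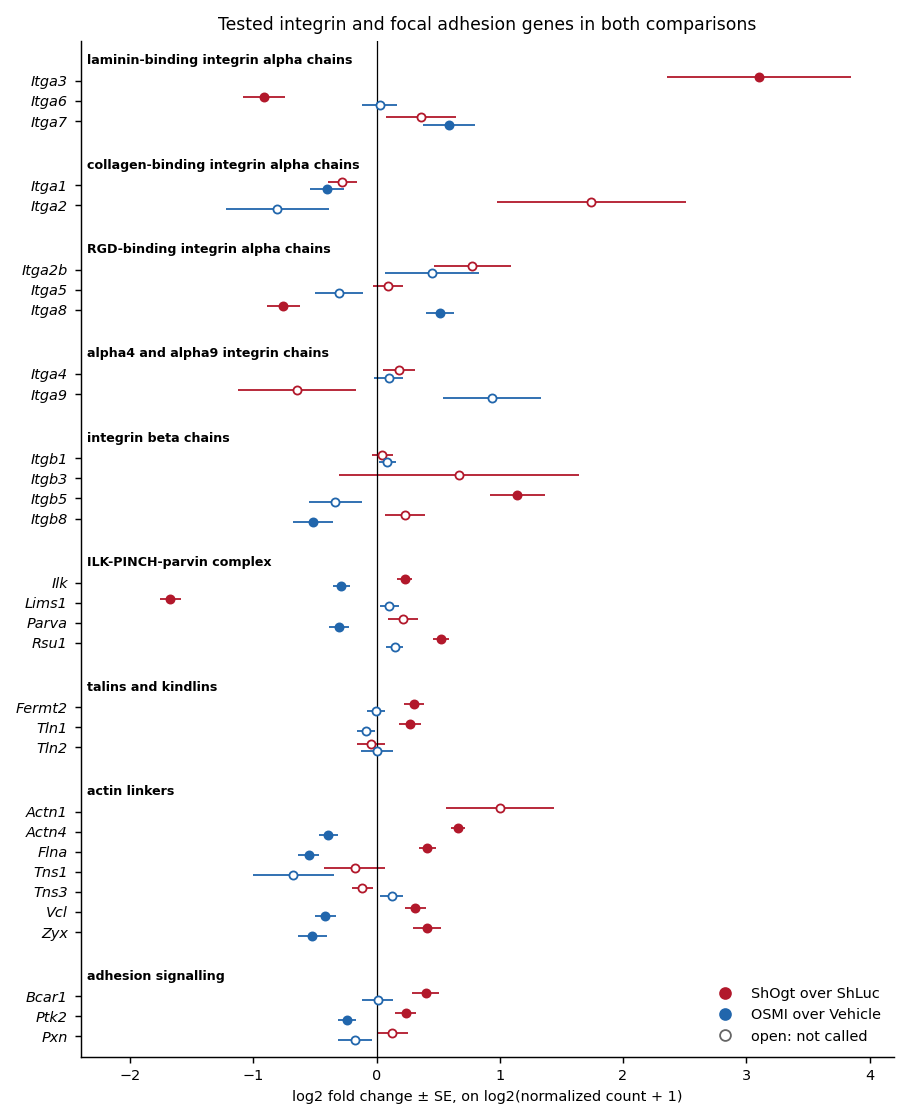
Log2 fold change ± SE on the log2(normalized count + 1) scale (horizontal axis) of each gene that passed the filter, in ShOgt over ShLuc (red) and OSMI over Vehicle (blue), grouped by role; filled points were called at an adjusted p under 0.05. Lims1 stands furthest to the left in red at -1.67, and the actin linkers Actn4, Flna, Vcl and Zyx have red points right of 0 and blue points left of it.

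Among the laminin-binding α chains, Itga6 fell after knockdown, while Itga7 was called higher after OSMI-1. Itga6 encodes α6, a main laminin receptor chain of neural stem cells. Its ShOgt libraries held 100.5, 120.3, 91.8, 160.1 and 90.5 normalized counts, against ShLuc libraries running from 162 to 257 with a median of 203. All 5 ShOgt libraries lay below all 6 ShLuc libraries, though the highest of the one and the lowest of the other were almost level (log2 fold change -0.91 ± 0.17, adjusted p = 0.000436). OSMI libraries held 167, 158, 195, 224 and 181 and Vehicle libraries ran from 135 to 258 with a median of 174. These overlapped through most of their range (log2 fold change 0.026 ± 0.14, adjusted p = 0.919).

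Itga3, the α3 laminin receptor chain, had 24.01, 23.7, 31.1, 25.6 and 24.97 normalized counts in the ShOgt libraries. ShLuc libraries ran from 0 to 11.5 with a median of 2.52, and ShLuc replicates 1, 2 and 5 were at 0. The ShOgt libraries lay above the ShLuc libraries, but all 5 ShOgt and 2 of the 6 ShLuc libraries reached the cutoff of the filter, so these levels are given as a description. In the inhibitor experiment Itga3 stayed under the filter, at 3.49 ± 3.59 in OSMI and 13.5 ± 8.24 in Vehicle, and was not tested; the authors' deposited table, turned to OSMI over Vehicle, gives it a log2 fold change of -1.80 ± 0.64 with an adjusted p of 0.0253. Itga7, the α7 chain best known from muscle, had 219.6, 152, 215, 154 and 72.2 normalized counts in OSMI libraries, whereas Vehicle libraries ran from 81.2 to 128 with a median of 101. OSMI replicate 6 lay below every Vehicle library and the other 4 lay above every one (log2 fold change 0.59 ± 0.21, adjusted p = 0.0443). That call was lost without any 1 of OSMI 1, 2, 4 or 5 or Vehicle 1, 2, 3, 4 or 6, with adjusted p between 0.0573 and 0.140, and at 0.0851 without the libraries that stood apart and 0.0868 with no filter. In the knockdown experiment Itga7 held 55.1, 34.5, 60.7, 69.4 and 52.02 in ShOgt libraries and ran from 22.8 to 63.7 with a median of 43.3 in ShLuc libraries, which overlapped (log2 fold change 0.36 ± 0.28, adjusted p = 0.36).

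Of the 4 collagen-binding α chains, 2 passed the filter. Itga1, the α1 chain that binds collagen IV, averaged 255 ± 51.8 in OSMI and 336 ± 58.6 in Vehicle and was called lower after OSMI-1 (log2 fold change -0.40 ± 0.14, adjusted p = 0.0344). Leaving out any 1 of OSMI 2, 4 or 6 or Vehicle 1, 2 or 6 put its adjusted p between 0.0535 and 0.123, and with no filter it was 0.0620. After knockdown it averaged 494 ± 60.6 in ShOgt and 602 ± 105 in ShLuc (log2 fold change -0.28 ± 0.12, adjusted p = 0.0892), with an adjusted p of 0.0292 without ShLuc 1 and 0.0237 without the libraries that stood apart. Itga2, the α2 chain, averaged 33.2 ± 6.53 in ShOgt and 17.5 ± 13.4 in ShLuc, and 9.498 ± 6.38 in OSMI and 14.9 ± 3.603 in Vehicle. It was called in neither experiment (adjusted p = 0.0901 and 0.172). Itga10 and Itga11 stayed below the filter in both, with highest library values of 3.56 and 21.5 in the knockdown experiment and 1.72 and 3.04 in the inhibitor experiment.

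The RGD-binding chains gave 1 gene that moved in opposite directions. Itga8 encodes α8, which pairs with β1 and binds nephronectin, fibronectin and tenascin-C. ShOgt libraries held 263, 197, 191, 228 and 218 normalized counts and ShLuc libraries ran from 301 to 485 with a median of 349. Every ShOgt library was below every ShLuc library, a 1.69-fold lower level (log2 fold change -0.75 ± 0.14, adjusted p = 0.00029). In OSMI libraries the values were 211, 225, 269, 315 and 244, against Vehicle libraries from 163 to 189 with a median of 174. Here every OSMI library was above every Vehicle library, by 1.43-fold (log2 fold change 0.51 ± 0.11, adjusted p = 0.00167). Itga5, the α5 chain of the fibronectin receptor, averaged 480.2 ± 82.5 in ShOgt and 448 ± 59.5 in ShLuc, and 155 ± 53.2 in OSMI and 189 ± 42.4 in Vehicle, and was not called (adjusted p = 0.599 and 0.273). Itga2b, the αIIb chain of platelets, averaged 55.7 ± 16.2 in ShOgt and 32.6 ± 10.5 in ShLuc, and 16.8 ± 5.25 in OSMI and 12.7 ± 6.300 in Vehicle. It was not called either (adjusted p = 0.0635 and 0.424), save at 0.0257 after knockdown without ShOgt 6. Of the remaining α chains, which recognise VCAM-1, fibronectin or tenascin-C, Itga4 averaged 262 ± 39.1 in ShOgt and 229 ± 21.5 in ShLuc, and 273 ± 42.8 in OSMI and 254 ± 33.9 in Vehicle, and Itga9 averaged 18.9 ± 12.4 in ShOgt and 23.8 ± 5.099 in ShLuc, and 26.8 ± 15.95 in OSMI and 13.2 ± 7.05 in Vehicle. Neither was called in either experiment, with Itga9 after OSMI-1 nearest the threshold (log2 fold change 0.94 ± 0.40, adjusted p = 0.0886). Its adjusted p there was 0.0402 without Vehicle 2 and 0.0475 by edgeR's quasi-likelihood test. Itga9 passed the filter in that experiment only through its OSMI libraries, which favours a higher level in OSMI.

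The common β1 chain was not called in either experiment, while the αv partners β5 and β8 each moved in 1. Itgb1 held 3651, 3632, 3099.9, 3583 and 4249 normalized counts in ShOgt libraries, and ShLuc libraries ran from 2924 to 3852 with a median of 3735. OSMI libraries held 3456, 4018, 3651, 4106 and 3307 and Vehicle libraries ran from 3161 to 3817 with a median of 3478. Groups overlapped in both experiments (log2 fold change 0.046 ± 0.086, adjusted p = 0.728, and log2 fold change 0.086 ± 0.069, adjusted p = 0.395). Itgb5, the β5 chain that pairs with αv to bind vitronectin, held 129, 135, 104, 125 and 131 in ShOgt libraries, where ShLuc libraries ran from 29.5 to 72.8 with a median of 59.9. All ShOgt libraries lay above all ShLuc libraries, a 2.21-fold higher level (log2 fold change 1.14 ± 0.22, adjusted p = 0.000594). After OSMI-1, the Itgb5 values were 41.9, 47.6, 42.2, 40.6 and 36.7, within Vehicle libraries that ran from 31.1 to 68.4 with a median of 58.6 (log2 fold change -0.33 ± 0.21, adjusted p = 0.278). Itgb8, the β8 chain that with αv activates latent TGF-β, held 149, 99.3, 92.95, 89.5 and 137 in OSMI libraries and ran from 119 to 211 with a median of 166 in Vehicle libraries. OSMI replicates 2, 4 and 5 lay below every Vehicle library and the other two overlapped them (log2 fold change -0.52 ± 0.16, adjusted p = 0.0214). Without any 1 of OSMI 2, 4 or 5 or Vehicle 2 that adjusted p lay between 0.0528 and 0.0631, and without the libraries that stood apart it was 0.0864. In the knockdown experiment Itgb8 held 229, 146, 129.9, 205 and 175 in ShOgt libraries and ran from 122 to 165 with a median of 150.2 in ShLuc libraries (log2 fold change 0.23 ± 0.16, adjusted p = 0.297). The shared partner Itgav, looked up after these values were seen, averaged 576 ± 61.1 in ShOgt and 578 ± 139.9 in ShLuc, and 447 ± 52.4 in OSMI and 402 ± 51.3 in Vehicle, and was not called (adjusted p = 0.896 and 0.3).

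Itgb3, the β3 chain of the platelet and vitronectin receptors, was tested only after knockdown, at 13.4 ± 10.7 in ShOgt and 13.7 ± 15.5 in ShLuc (log2 fold change 0.67 ± 0.97, adjusted p = 0.645), and reached at most 7.15 in the inhibitor experiment. The remaining β chains were below the filter in both. Itgb2, the leukocyte chain, reached at most 12.5 and 8.202 in the knockdown and inhibitor experiments, and Itgb4, the hemidesmosome chain, 14.1 and 2.29. Itgb6, an epithelial chain, reached 0.788 and was at 0 in every library of the inhibitor experiment. Itgb7, a lymphocyte chain, was at 0 in every library of the knockdown experiment and reached 2.18 in the inhibitor experiment. Scaled to the length of the longest coding transcript, Itgb1 had the highest level of the β chains in every group: 955 ± 107 normalized counts per kilobase in ShOgt, 926 ± 103 in ShLuc, 972 ± 91.01 in OSMI and 914 ± 62.5 in Vehicle. Itgb5 came next in ShOgt at 38.1 ± 3.66, with 17.7 ± 4.896 in ShLuc, and Itgb8 lay at 21.04 ± 4.84 and 17.6 ± 1.96. Of the α chains of the list, Itga5 was highest per kilobase in ShOgt (109.6 ± 18.8) and ShLuc (102 ± 13.6). In OSMI, Itga8, Itga6, Itga7 and Itga5 lay within their spread of each other, at 43.5 ± 7.04, 42.9 ± 6.04, 40.4 ± 14.9 and 35.5 ± 12.1. In Vehicle, Itga5 (43.02 ± 9.67) and Itga6 (42.6 ± 9.54) were highest and lay within their SD of each other, with Itga1 next at 30.6 ± 5.35.

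**Figure D2:**
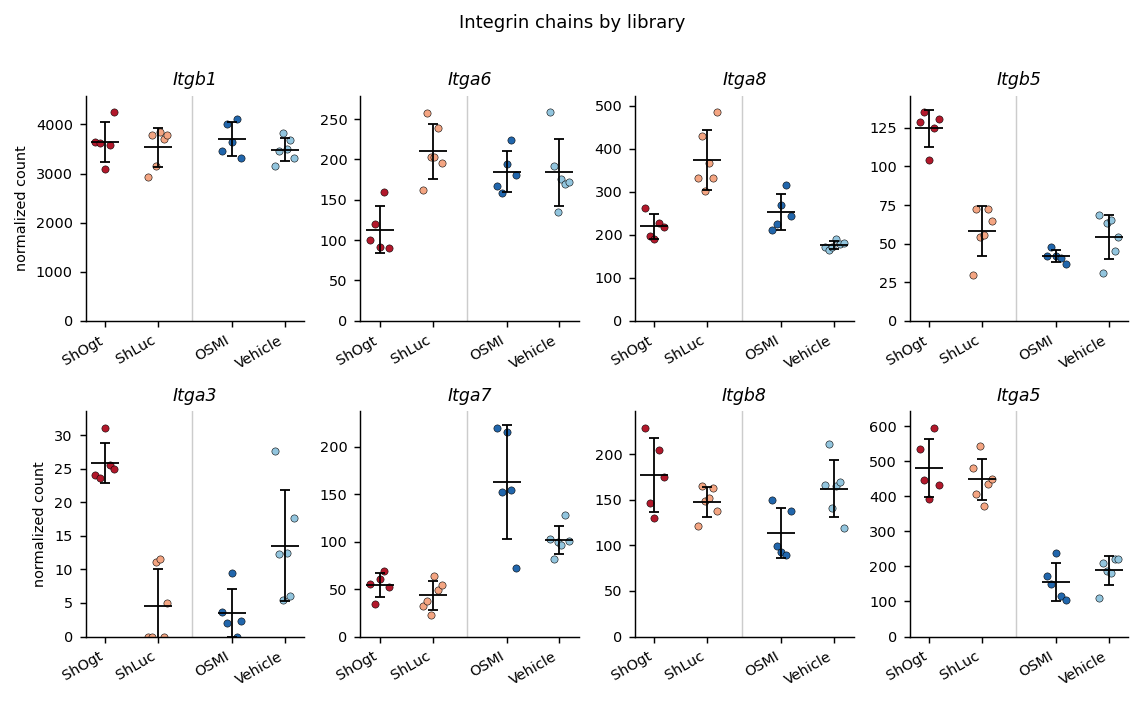
Normalized counts (vertical axes, from 0, each panel with its own scale) of 8 integrin chains in every library, as points, with mean ± SD as bars, in ShOgt, ShLuc, OSMI and Vehicle; the grey line parts the separately normalized experiments. Itga6 and Itga8 have all ShOgt points below all ShLuc points, Itgb5 and Itga3 have them above, and Itgb1 overlaps throughout.

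The ILK, PINCH and parvin genes did not move as a unit. Lims1, which encodes PINCH-1, the LIM-domain adaptor that joins ILK to RSU1, was lower in ShOgt than in ShLuc while Ilk and Rsu1 were higher. Lims1 held 581, 759, 795, 804 and 767 normalized counts in ShOgt libraries, against ShLuc libraries from 2105 to 2543 with a median of 2375. The highest ShOgt library lay far below the lowest ShLuc library, and the level was 3.19-fold lower (log2 fold change -1.67 ± 0.087, adjusted p = 8.51e-11). OSMI libraries held 1328, 1392, 1571, 1585 and 1496 and Vehicle libraries ran from 1238 to 1565 with a median of 1335. These overlapped (log2 fold change 0.10 ± 0.075, adjusted p = 0.344), and the fold changes of the 2 experiments differed by -1.78 ± 0.12, adjusted p = 7.53e-13 on the log2 scale, knockdown minus inhibitor.

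Ilk encodes the pseudokinase at the centre of the complex. Its values were 4282, 4400.4, 4634, 4268 and 3874 in ShOgt libraries, with ShLuc libraries running from 3469 to 3953 with a median of 3629. The shift was small and the libraries overlapped in 1 place, ShOgt replicate 6 being below the highest ShLuc library (log2 fold change 0.23 ± 0.062, adjusted p = 0.00777). In OSMI libraries Ilk held 1359.7, 1525, 1570.3, 1363 and 1281, and Vehicle libraries ran from 1657 to 1884 with a median of 1691. Every OSMI library was below every Vehicle library (log2 fold change -0.28 ± 0.068, adjusted p = 0.00349).

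Rsu1, whose product binds PINCH-1, held 2466, 2552, 2452, 2379 and 2266 in ShOgt libraries and ran from 1619 to 1767 with a median of 1681 in ShLuc libraries. No ShOgt library came near the ShLuc range (log2 fold change 0.52 ± 0.062, adjusted p = 3.17e-06). After OSMI-1 it held 1137, 1110, 1078, 1006 and 1040.1, beside Vehicle libraries from 915 to 1051 with a median of 949 (log2 fold change 0.15 ± 0.068, adjusted p = 0.121). Parva encodes α-parvin, which links ILK to actin. It held 668, 700.5, 729, 708 and 593 in OSMI libraries, all below Vehicle libraries that ran from 749.9 to 907 with a median of 844 (log2 fold change -0.31 ± 0.078, adjusted p = 0.00582). In ShOgt libraries it held 1239, 958, 974, 1288 and 1338, and ShLuc libraries ran from 733 to 1242 with a median of 1013. These groups overlapped (log2 fold change 0.21 ± 0.12, adjusted p = 0.202). The paralogs Lims2 (PINCH-2) and Parvb (β-parvin) were below the filter in both experiments, with at most 9.49 and 9.78 normalized counts in a knockdown library and 0.956 and 4.701 in an inhibitor library.

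**Figure D3:**
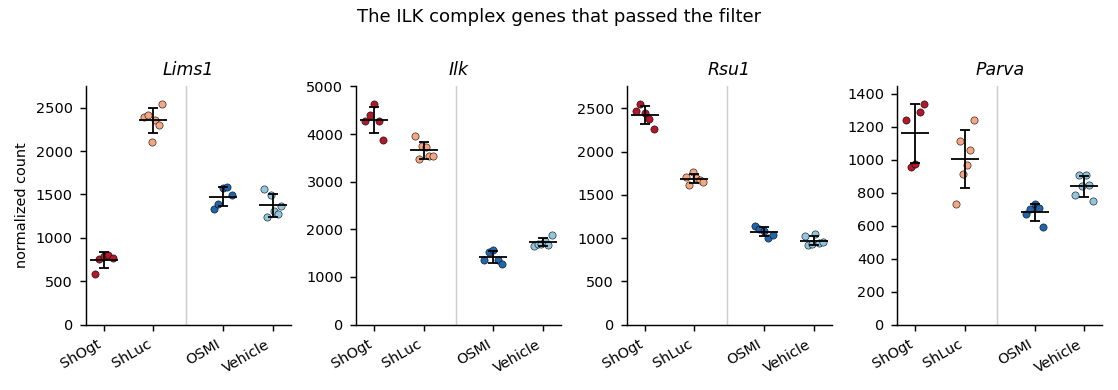
Normalized counts (vertical axes, from 0) of Lims1, Ilk, Rsu1 and Parva in every library, with mean ± SD as bars, in ShOgt, ShLuc, OSMI and Vehicle. Lims1 lies at 581 to 804 in ShOgt and 2105 to 2543 in ShLuc, while Rsu1 lies higher in ShOgt than in ShLuc without overlap.

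The 3′UTRs of the 40 genes were searched for AACATGC, a 7-base sequence that earlier results of these data had singled out among genes that fell after knockdown; the sequence of the hairpin itself was not used here. Since the letters were chosen that way, no share of genes that fell is given for them. Of the 11349 genes tested after knockdown that have a 3′UTR in GENCODE M21 (GRCm38), 10.2% hold it. Only Lims1 and Itga1 of the 40 hold it, Lims1 in the 3′UTR of 1 of its 3 coding transcripts and Itga1 at 2 places in its own. The sites are shown because only these genes of the list hold them. Lims1 has the largest fall of the list after knockdown. Itga1 had a log2 fold change of -0.28 that was not called in the main fit, though it was under some alternatives. Whether the letters bear on either level was not tested. A match is a description of the letters, read along the transcript, with AACATGC in capitals. The Lims1 site lies at chr10:58422214-58422242 on the plus strand, and the Itga1 sites lie at chr13:114953709-114953737 and chr13:114956671-114956699 on the minus strand.
Lims1: attgtaaaaggAACATGCatattactaag
Itga1, first of the coordinates: tggctgcaggaAACATGCagggatgttct
Itga1, second: tgtaggactggAACATGCcctagccaggc

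Of the receptor activators, Tln1 and Fermt2 were called higher after knockdown and neither was called after OSMI-1. Fermt2, which encodes kindlin-2, averaged 1473 ± 111 in ShOgt and 1194 ± 94.1 in ShLuc, with every ShOgt library above every ShLuc library (log2 fold change 0.30 ± 0.078, adjusted p = 0.00554). After OSMI-1 its means differed by less than the spread, 706 ± 60.9 in OSMI and 706 ± 30.2 in Vehicle (log2 fold change -0.004 ± 0.076, adjusted p = 0.979). Tln1, talin-1, averaged 2299 ± 327 in ShOgt and 1897 ± 195 in ShLuc with overlap (log2 fold change 0.27 ± 0.091, adjusted p = 0.0282). The Tln1 call rested on single libraries: without any 1 of ShOgt 1, 2 or 3 or ShLuc 2, 3, 4 or 6 the adjusted p lay between 0.0524 and 0.0810, without the libraries that stood apart it was 0.0660, and with no filter 0.0517. Tln1 averaged 1063 ± 46.6 in OSMI and 1128 ± 97.1 in Vehicle (adjusted p = 0.445). Tln2, talin-2, averaged 320.3 ± 24.2 in ShOgt and 332 ± 39.1 in ShLuc, and 178 ± 21.4 in OSMI and 179 ± 29.3 in Vehicle, and was called in neither (adjusted p = 0.801 and 0.992). Fermt1, the epithelial kindlin-1, reached at most 6.300 and 2.73.

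Of the 7 actin linkers, Actn4, Flna, Zyx and Vcl were each called higher after knockdown and lower after OSMI-1. Actn4 encodes α-actinin-4, a crosslinker of actin filaments. ShOgt libraries held 6854, 6246, 6551, 6315 and 6191 normalized counts, and ShLuc libraries ran from 3728 to 4313 with a median of 4104. The groups were far apart, by 1.58-fold (log2 fold change 0.66 ± 0.058, adjusted p = 8.94e-08). OSMI libraries held 1825, 1824, 2071, 1724 and 1469.6, below Vehicle libraries that ran from 2089 to 2539 with a median of 2329. Here too the groups did not overlap, though the highest OSMI and the lowest Vehicle library were close (log2 fold change -0.39 ± 0.077, adjusted p = 0.000574).

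Flna encodes filamin A, which crosslinks actin and binds β tails. It held 3670.4, 3349.9, 3858, 3854 and 3206 in ShOgt libraries, against ShLuc libraries from 2463 to 2896 with a median of 2694. Every ShOgt library was above (log2 fold change 0.41 ± 0.069, adjusted p = 0.000129). In OSMI libraries Flna held 968, 895, 994, 1006 and 838, and Vehicle libraries ran from 1110 to 1536 with a median of 1427. Every OSMI library was below, by 1.47-fold (log2 fold change -0.55 ± 0.085, adjusted p = 3.84e-05). Zyx encodes zyxin, a LIM protein recruited to adhesions under tension. Its ShOgt libraries held 733, 757, 704, 603 and 619, partly over the range of ShLuc libraries, which ran from 419.6 to 606 with a median of 527. Only ShOgt replicate 5 lay within the ShLuc range, just below its top (log2 fold change 0.41 ± 0.11, adjusted p = 0.00926). OSMI libraries held 209, 235, 234, 171 and 160.4, all below Vehicle libraries that ran from 256 to 309 with a median of 295 (log2 fold change -0.52 ± 0.12, adjusted p = 0.00178).

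Vcl, vinculin, which binds talin and actin, averaged 1105 ± 83.9 in ShOgt and 889.6 ± 92.8 in ShLuc (log2 fold change 0.32 ± 0.086, adjusted p = 0.00858), and 542 ± 61.1 in OSMI and 720.4 ± 42.1 in Vehicle (log2 fold change -0.41 ± 0.084, adjusted p = 0.000752). Its libraries overlapped between ShOgt and ShLuc and did not between OSMI and Vehicle, and without the libraries that stood apart the adjusted p after knockdown was 0.0519. Of the others, Tns3, tensin-3, averaged 1088 ± 121 in ShOgt and 1174 ± 80.8 in ShLuc, and 1023 ± 125 in OSMI and 939.5 ± 111 in Vehicle, and Tns1, tensin-1, averaged 103 ± 41.7 in ShOgt and 109 ± 14.5 in ShLuc, and 30.7 ± 12.5 in OSMI and 49.2 ± 17.99 in Vehicle. Neither was called (adjusted p after knockdown and after OSMI-1 0.331 and 0.367 for Tns3, 0.627 and 0.147 for Tns1), except that Tns1 passed after OSMI-1 without Vehicle 2, at 0.0233. Actn1, α-actinin-1, was tested only after knockdown, at 19.8 ± 2.29 in ShOgt and 10.6 ± 5.99 in ShLuc (log2 fold change 1.00 ± 0.44, adjusted p = 0.0908, and 0.0483 without ShLuc 3). It passed the filter only through its ShOgt libraries, which favours a higher level in ShOgt. In the inhibitor experiment Actn1 reached at most 11.9.

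**Figure D4:**
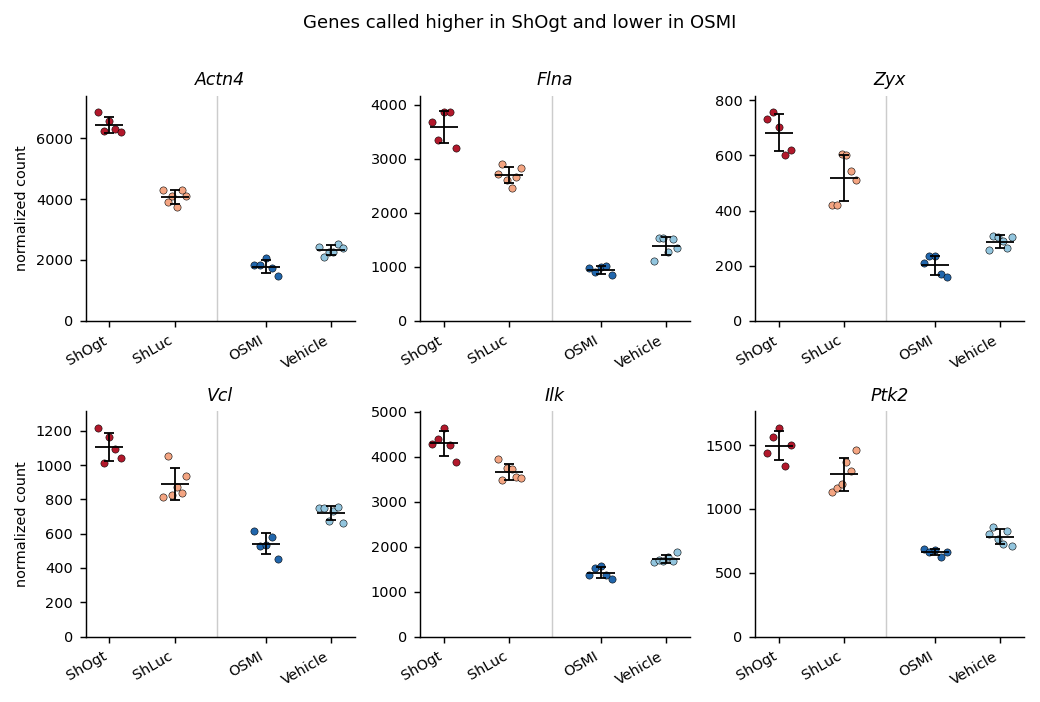
Normalized counts (vertical axes, from 0) of the 6 genes called higher in ShOgt than in ShLuc and lower in OSMI than in Vehicle, in every library, with mean ± SD as bars. Actn4 and Flna are the genes of this plot whose groups do not overlap in either experiment; Actn4 lies at 6191 to 6854 in ShOgt and 3728 to 4313 in ShLuc.

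The promoters of the linkers that moved together were read for the letters of 2 motifs: the CArG box, the sequence bound by serum response factor, and GGAATG, the core letters bound by TEAD factors, the partners of YAP. RefSeq promoters of GRCm38.p6, 250 bases before to 50 after a start, were matched by symbol for 30 of the 40 genes, giving 36 promoters, and both strands were searched. GGAATG was in the promoters of 5 of these genes, Actn4, Flna, Vcl, Itgb1 and Itga10, a share near that of all 32851 promoters, of which 14.7% hold it. A CArG box was in 4 of the 36 promoters, 1 each of Vcl, Fermt2, Rsu1 and Itgb6, beside 1.63% of all promoters, and whether this share differs was not tested. The Rsu1 match lies past the start site, at 28. Of the 4, Vcl alone is among the linkers that moved together. Itgb1 was not called in either experiment and Itga10 and Itgb6 were below the filter. The 250 upstream bases of Vcl, Flna and Actn4 are shown because these are the opposed genes that hold a match; the promoters of Zyx and Ilk held neither motif, and none was used for Ptk2. Capitals mark the motifs: in Vcl the CArG box at -227 and GGAATG at -143, in Flna and Actn4 the same letters on the other strand, CATTCC, at -146 and -216. Positions count from the start site. Vcl is chr14:20929148-20929397, plus strand, Flna chrX:74246535-74246784, minus strand, and Actn4 chr7:28962333-28962582, minus strand.
Vcl: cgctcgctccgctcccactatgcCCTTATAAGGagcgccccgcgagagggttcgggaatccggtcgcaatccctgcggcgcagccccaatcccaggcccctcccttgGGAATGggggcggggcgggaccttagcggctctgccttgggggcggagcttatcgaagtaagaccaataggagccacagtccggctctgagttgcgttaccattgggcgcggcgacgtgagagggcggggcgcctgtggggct
Flna: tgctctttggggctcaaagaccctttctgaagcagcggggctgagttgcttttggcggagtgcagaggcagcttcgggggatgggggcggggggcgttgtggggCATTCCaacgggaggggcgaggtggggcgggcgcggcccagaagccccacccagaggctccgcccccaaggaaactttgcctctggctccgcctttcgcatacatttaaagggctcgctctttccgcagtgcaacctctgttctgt
Actn4: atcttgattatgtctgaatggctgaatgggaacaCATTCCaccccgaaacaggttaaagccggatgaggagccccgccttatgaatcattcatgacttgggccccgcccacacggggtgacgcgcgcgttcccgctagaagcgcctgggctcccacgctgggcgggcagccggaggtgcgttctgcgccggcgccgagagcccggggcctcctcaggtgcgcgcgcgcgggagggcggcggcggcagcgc

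Of the signalling genes, Ptk2 moved in opposite directions and Bcar1 in 1 experiment, while paxillin was called in neither. Ptk2, focal adhesion kinase, averaged 1494 ± 113 in ShOgt and 1271 ± 127 in ShLuc (log2 fold change 0.24 ± 0.082, adjusted p = 0.0347), and 660.3 ± 25.4 in OSMI and 781 ± 59.1 in Vehicle (log2 fold change -0.24 ± 0.074, adjusted p = 0.0203). Every OSMI library lay below every Vehicle library and the hairpin groups overlapped. Both Ptk2 calls sat close to the threshold. After knockdown its adjusted p lay between 0.0525 and 0.0852 without any 1 of ShOgt 1, 2, 3 or 6 or ShLuc 1, 2 or 3, and at 0.197 without the libraries that stood apart, where its log2 fold change was 0.14. After OSMI-1 it lay between 0.0502 and 0.0510 without OSMI 5, Vehicle 2 or Vehicle 5, and at 0.0745 without the libraries that stood apart. Bcar1, the scaffold p130Cas, averaged 638 ± 106 in ShOgt and 480 ± 40.3 in ShLuc (log2 fold change 0.40 ± 0.11, adjusted p = 0.00871; 0.0525 without the libraries that stood apart), and 248 ± 45.95 in OSMI and 245 ± 30.7 in Vehicle (log2 fold change 0.0083 ± 0.13, adjusted p = 0.973). Pxn, paxillin, averaged 382 ± 40.9 in ShOgt and 352 ± 58.9 in ShLuc, and 219 ± 45.3 in OSMI and 245 ± 40.6 in Vehicle (adjusted p = 0.482 and 0.39).

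Whether the 2 experiments differed was tested gene by gene as the fold change of the knockdown minus that of the inhibitor, over all 22 libraries and 11269 genes. The experiments share no library, but agent, duration, depth and vehicle differ between them, so this compares the experiments and cannot tell these apart. Of the 28 genes of the list tested in both, 13 had a higher fold change after knockdown than after OSMI-1 and 3 a lower one, beside 11.5% and 11.4% of all genes. Itga2, among the 13, passed the filter only through its ShOgt libraries in the one experiment and its Vehicle libraries in the other. The filter thus favours a positive difference for Itga2, and its value is given as a description. Actn4, Flna, Zyx, Vcl, Ilk and Ptk2, called in opposite directions, differed by 1.05, 0.96, 0.93, 0.73, 0.51 and 0.48 on the log2 scale, each with an adjusted p of 0.0014 or less. These are 6 of 28, where 1.33% of all genes were called higher after knockdown and lower after OSMI-1. In the other direction stood Itga8 alone (-1.27 ± 0.18, adjusted p = 1.99e-06), where 1.85% of all genes were called lower after knockdown and higher after OSMI-1. None of the 28 was called higher in both or lower in both, beside 2.72% and 5.64% of all genes.

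Among genes called in 1 experiment, the difference was itself called for Lims1, Itga6 (-0.94 ± 0.23, adjusted p = 0.00259), Itgb5 (1.48 ± 0.31, adjusted p = 0.000591), Itgb8 (0.75 ± 0.23, adjusted p = 0.0193), Parva (0.52 ± 0.15, adjusted p = 0.0117), Rsu1 (0.38 ± 0.086, adjusted p = 0.00148), Tln1 (0.35 ± 0.12, adjusted p = 0.0285) and Fermt2 (0.31 ± 0.11, adjusted p = 0.0323). The calls for Tln1 and Fermt2 did not hold without single libraries. Tln1 had an adjusted p of 0.0506 to 0.0634 without ShOgt 1, ShOgt 3 or OSMI 4, and 0.120 without the libraries that stood apart. Fermt2 had 0.0507 to 0.0685 without any 1 of ShOgt 1, 5 or 6, ShLuc 3 or 5, OSMI 2 or 6 or Vehicle 6. Itga1, Itga7 and Bcar1, each called in 1 experiment, were not called to differ (0.13 ± 0.19, adjusted p = 0.69; -0.22 ± 0.36, adjusted p = 0.707; 0.39 ± 0.17, adjusted p = 0.0982, or 0.0439 without OSMI 4). Itga2, called in neither, was called to differ (2.55 ± 0.92, adjusted p = 0.0432) on low counts, at most 40.5 in a library, and that call was lost without any 1 of 14 of the 22 libraries, at adjusted p between 0.0515 and 0.0900: all 5 ShOgt, ShLuc 1 and 4, OSMI 2, 4 and 6, and Vehicle 2, 3, 4 and 5. By edgeR and DESeq2 on the recovered reads it was 0.127 and 0.158. For Itga9 (-1.58 ± 0.64, adjusted p = 0.0724) the adjusted p was 0.0432 to 0.0435 without ShOgt 2, ShOgt 6 or Vehicle 2, and for Itga5 (0.40 ± 0.25, adjusted p = 0.267) it was 0.0490 without the libraries that stood apart. Itga9 passed the filter only through its ShLuc and its OSMI libraries, which favours a negative difference.

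**Figure D5:**
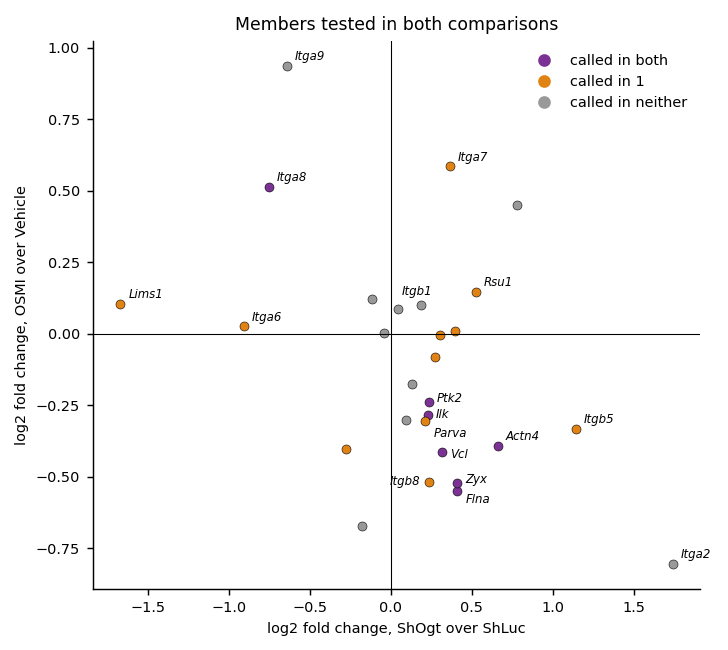
Log2 fold change in ShOgt over ShLuc (horizontal axis) and in OSMI over Vehicle (vertical axis) of the 28 genes tested in both experiments, one point a gene, coloured by whether it was called in both experiments, in 1 or in neither. The genes called in both lie at the lower right, except Itga8, which lies in the upper left.

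The list of 29 matrix ligands of integrins had more genes higher than lower after knockdown and more lower than higher after OSMI-1. It was chosen with earlier results of these data known, so its counts are a description. After knockdown 11 of 23 tested were called higher and 2 lower, with a median log2 fold change of 0.37, beside 15.4% and 16.4% of all genes tested. After OSMI-1 2 of 22 were called higher and 11 lower, with a median of -0.44, beside 11.6% and 13.2% of all genes. Nid1, nidogen-1, which bridges laminin and collagen IV, averaged 159 ± 18.6 in ShOgt and 56.7 ± 23.8 in ShLuc (log2 fold change 1.56 ± 0.25, adjusted p = 7.79e-05), and Cyr61, a matricellular ligand of αv integrins and a known YAP target, 1321 ± 115 in ShOgt and 505 ± 43.3 in ShLuc (log2 fold change 1.39 ± 0.089, adjusted p = 1.32e-09). Lama2, the laminin α2 chain, averaged 121 ± 24.3 in ShOgt and 64.5 ± 17.6 in ShLuc (log2 fold change 0.92 ± 0.21, adjusted p = 0.00241). After OSMI-1 the basement membrane collagens were lower, Col4a2 at 64.2 ± 13.9 in OSMI and 128 ± 28.3 in Vehicle (log2 fold change -0.98 ± 0.18, adjusted p = 0.000294) and Col4a1 at 107 ± 22.97 in OSMI and 191 ± 37.5 in Vehicle (log2 fold change -0.84 ± 0.16, adjusted p = 0.000398). So were Ctgf, another matricellular YAP target, at 374 ± 106 in OSMI and 684 ± 86.8 in Vehicle (log2 fold change -0.92 ± 0.16, adjusted p = 0.000132), and Fbln1, fibulin-1, at 245 ± 39.6 in OSMI and 451 ± 55.5 in Vehicle (log2 fold change -0.88 ± 0.11, adjusted p = 3.79e-06). Fbln1 was also called lower after knockdown, at 618 ± 35.6 in ShOgt and 875 ± 103 in ShLuc (log2 fold change -0.50 ± 0.093, adjusted p = 0.000399). Of the other ligands named here, Cyr61 and Ctgf were called higher after knockdown and lower after OSMI-1. Nid1, Lama2, Col4a1 and Col4a2 were called only in the experiment given. The difference between experiments was called for 11 of 22, all with a higher fold change after knockdown than after OSMI-1, beside 11.5% higher and 11.4% lower over all genes. Such a difference can come from a rise after knockdown, a fall after OSMI-1 or both. None had a lower fold change after knockdown than after OSMI-1, nor at an unadjusted limma p under 0.05 or by edgeR or DESeq2.

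A list of 20 genes of actin or responsive to SRF or YAP had 6 of 16 tested called higher after knockdown (median log2 fold change 0.40), beside 15.4% of all genes, and none lower, beside 16.4%, nor at an unadjusted limma p under 0.05 or by edgeR or DESeq2. After OSMI-1, 1 of 16 was called higher and 8 lower (median -0.37), beside 11.6% and 13.2% of all genes. This list too was chosen with earlier results of these data known, and its counts are a description. Lats2, a kinase of the Hippo pathway, averaged 669.6 ± 59.9 in ShOgt and 283 ± 39.7 in ShLuc (log2 fold change 1.25 ± 0.11, adjusted p = 1.14e-07), and Myl12b, a myosin light chain, 3770.4 ± 288 in ShOgt and 2103 ± 214 in ShLuc (log2 fold change 0.84 ± 0.077, adjusted p = 1.2e-07). Myl12b was also called higher after OSMI-1, at 1107 ± 86.5 in OSMI and 927 ± 14.5 in Vehicle (log2 fold change 0.25 ± 0.068, adjusted p = 0.00837), and Lats2 was not called there. Cald1, caldesmon, averaged 3259 ± 226 in ShOgt and 1942 ± 83.3 in ShLuc (log2 fold change 0.74 ± 0.065, adjusted p = 8.27e-08), and 1155 ± 152 in OSMI and 998 ± 44.6 in Vehicle, where it was not called (log2 fold change 0.20 ± 0.08, adjusted p = 0.0702). Tpm4, a tropomyosin, was among the 4 largest in both: 4531 ± 609 in ShOgt and 2736 ± 217 in ShLuc (log2 fold change 0.72 ± 0.085, adjusted p = 3.02e-06), and 1154 ± 125 in OSMI and 2264 ± 132 in Vehicle (log2 fold change -0.98 ± 0.075, adjusted p = 1.18e-09). After OSMI-1, Cnn2, calponin-2, averaged 62.8 ± 18.4 in OSMI and 294 ± 36.1 in Vehicle (log2 fold change -2.25 ± 0.17, adjusted p = 5.59e-10), Myl9, a myosin light chain, 53.5 ± 15.1 in OSMI and 175 ± 30.1 in Vehicle (log2 fold change -1.73 ± 0.18, adjusted p = 2.42e-07), and Tagln2, transgelin-2, 108 ± 11.9 in OSMI and 202 ± 35.2 in Vehicle (log2 fold change -0.88 ± 0.13, adjusted p = 2.99e-05).

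The further 53 adhesome genes outside the 40 had calls in both directions, at shares near those of all genes. After knockdown 8 of 46 tested were called higher and 6 lower, beside 15.4% and 16.4% of all genes, and after OSMI-1 5 of 44 were called in each direction, beside 11.6% and 13.2%, with medians of 0.049 and 0.0027. Enah, an actin elongation factor, averaged 161 ± 9.12 in ShOgt and 323 ± 33.9 in ShLuc (log2 fold change -0.99 ± 0.12, adjusted p = 3.34e-06), while its relative Vasp averaged 206 ± 14.5 in ShOgt and 112 ± 30.1 in ShLuc (log2 fold change 0.91 ± 0.17, adjusted p = 0.000402). Iqgap1, a scaffold protein that binds actin, averaged 1767 ± 146 in ShOgt and 971 ± 91.2 in ShLuc (log2 fold change 0.86 ± 0.084, adjusted p = 2.93e-07). Csrp1, a LIM protein of actin bundles, was lower in both experiments, at 35.4 ± 13.6 in ShOgt and 71.5 ± 33.5 in ShLuc (log2 fold change -0.94 ± 0.35, adjusted p = 0.0488) and 17.5 ± 5.05 in OSMI and 49.9 ± 14.7 in Vehicle (log2 fold change -1.44 ± 0.27, adjusted p = 0.000297). After OSMI-1, Trip6, a zyxin relative, averaged 131 ± 24.7 in OSMI and 210.1 ± 44.7 in Vehicle (log2 fold change -0.67 ± 0.15, adjusted p = 0.00245) and Tns2, tensin-2, 86.4 ± 21.97 in OSMI and 122 ± 17.9 in Vehicle (log2 fold change -0.52 ± 0.17, adjusted p = 0.0264). Kank2, which binds talin at the rim of adhesions, averaged 128 ± 21.97 in OSMI and 87.4 ± 12.6 in Vehicle (log2 fold change 0.53 ± 0.16, adjusted p = 0.0143). Trip6 was also called higher after knockdown, at 594 ± 37.2 in ShOgt and 499 ± 51.6 in ShLuc (log2 fold change 0.26 ± 0.097, adjusted p = 0.0497). Enah, Vasp, Iqgap1, Tns2 and Kank2 were called only in the experiment given.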

How the data were processed

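RNA of 22 libraries was analysed from 2 deposited tables of 24411 entries, 1 per experiment. Per the file headers, the authors deposited normalized counts per library (a signal, never negative: reads scaled by the library's DESeq2 size factor), with their log2 fold change, Wald score, p-value and adjusted p-value. Per the submitters' processing notes, STAR, RSEM and DESeq2 were used, without versions, and the build named is human although the symbols are mouse. The labels' protocols name a strand-specific poly(A) kit and the series' design text Smart-Seq2, which was not settled. Within a library every value was a whole number of equal steps, to a tolerance of 0.001, and reads were recovered from these.

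Genes passing edgeR's filterByExpr on those reads (version 4.0.16, minimum count 10, minimum total 15) were tested with limma 3.58.1 (trend) on log2(normalized count + 1), two-sided, with Benjamini-Hochberg adjustment over all genes tested and calls at 0.05. Where counts are low, fold changes on this scale can lie above or below those of a count model. After knockdown Itga2 had a log2 fold change of 1.74 and Itgb3 of 0.67, beside 0.92 and -0.036 in the authors' deposited table. For Itga9 after OSMI-1 the values were 0.94 and 1.06. The fits were tested on simulated data. The difference between experiments is a contrast of the 4 group means over 22 libraries. The genes, lists, motifs and libraries that stood apart were chosen with earlier results of these data known.

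Every gene of the list is named. Values per library are given for those called with an absolute log2 fold change of 0.5 or more, for the tested ILK complex genes, and for Itgb1 and Itga6. Of the other lists, the 4 called genes with the largest change per comparison are given, apart from 1 that is not reported here. Alternatives were the pseudocount (0.5 and 8), no filter or a mean of 50 or more, TMM scaling, edgeR's quasi-likelihood test and DESeq2 1.42.0 on the recovered reads, the authors' deposited calls, the replicate number as a block, and each library, or those that stood apart, left out.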

Additional observations from a re-analysis of the deposited data

Results flagged for a closer look

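In 3 of the 118 groups of libraries examined, 1 library lay far from the others of its group, where chance gives about 1 in 20 such groups. Lims1 was at 581 in ShOgt replicate 1, below 759 to 804 in the other ShOgt libraries and further from the ShLuc libraries. Itga3 was at 31.1 in ShOgt replicate 3, with 23.7 to 25.6 in the others. Itga5 was at 109 in Vehicle replicate 1, with 181 to 222 in the others.

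For 16 genes the log2 fold change after knockdown differed from that after OSMI-1 by the test of the difference. Knockdown minus inhibitor was 1.05 for Actn4, 0.96 for Flna, 0.93 for Zyx, 0.73 for Vcl, 0.51 for Ilk and 0.48 for Ptk2, all called in opposite directions, and -1.27 for Itga8, called in the reverse sense. It was -1.78 for Lims1 and -0.94 for Itga6, which fell after knockdown alone, and 1.48 for Itgb5, 0.38 for Rsu1, 0.35 for Tln1 and 0.31 for Fermt2, which were called higher after knockdown alone. For Parva and Itgb8, called lower after OSMI-1 alone, it was 0.52 and 0.75, and for Itga2, called in neither experiment, 2.55. The filter favoured that sign for Itga2, as given above. Depth, the Rn45s share, agent and duration differ between the experiments, and their part in these differences cannot be told apart.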

How the results depend on the processing

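The number of genes of the list called ran from 13 to 15 after knockdown, 8 to 11 after OSMI-1 and 13 to 17 for the difference when each library was left out in turn, and from 12 to 16, 8 to 12 and 13 to 16 under the other alternatives. Over all genes the ranges were 3209 to 3893, 2427 to 2671 and 2263 to 2649 without single libraries, and 3493 to 4079, 2373 to 2964 and 2334 to 2766 otherwise. The authors' deposited table calls 15 genes of the list after knockdown, the same 15, and 12 after OSMI-1, the 11 and Itga3.

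Replicate numbers did not pair the libraries throughout. Same-numbered libraries correlated in their deviations from the group mean at -0.011 to 0.35 in the knockdown and -0.14 to 0.060 in the inhibitor experiment. ShOgt replicates 2 and 3 correlated best with their own number, at 0.062 and 0.35, and no OSMI replicate did. ShOgt 3 and ShLuc 3 also lay together on the third principal component, at -34.0 and -33.6, so replicate 3 of the knockdown experiment may share a factor, which was not tested. With the replicate number as a block, which drops the ShLuc 4 and Vehicle 3 libraries that have no partner, 3966, 2373 and 2412 genes were called, and 16, 10 and 13 genes of the list. The call of Ptk2 after OSMI-1 (adjusted p = 0.0535) and the differences of Fermt2 (0.0605), Itga2 (0.0654) and Tln1 (0.0718) were then lost, and Itga1 was called lower after knockdown (0.0487).

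Log2 fold changes of single genes changed sign only where they were not called. After knockdown, Itgb3 was -0.067 by edgeR and -0.036 by DESeq2 and in the authors' deposited table, and Itgb1 -0.0034 without the libraries that stood apart. After OSMI-1, Tln2 was -0.010 by edgeR, -0.0059 by DESeq2 and in the authors' deposited table, and -0.10 without those libraries, where Bcar1 was -0.0085. Fermt2 was 0.0023 by DESeq2 and in the authors' deposited table, and Itga6 -0.057 with the replicate block. The difference was 0.079 for Tln2 and -0.083 for Tns1 without those libraries. Without single libraries the value ran from -0.012 to 0.10 for Itgb1 and -0.36 to 0.10 for Tns1 after knockdown, from -0.073 to 0.11 for Bcar1, -0.039 to 0.033 for Fermt2, -0.057 to 0.13 for Itga6 and -0.053 to 0.068 for Tln2 after OSMI-1, and from -0.0058 to 0.20 for Itga1, -0.098 to 0.016 for Itgb1 and -0.12 to 0.0084 for Tln2 in the difference. The cause was not tested. All inhibitor libraries but OSMI 4 hold fewer reads than any knockdown library, and genes with few counts, such as Itga2, Itga3 and Itgb3, have wide errors.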
